A study of Equus caballus with 14 samples.

Results

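Transforming growth factor beta (TGF-beta) genes were examined in gluteus medius muscle of horses with polysaccharide storage myopathy (PSSM), a glycogen storage disease of the muscle fiber. The set held 10 genes: the ligands TGFB1, Tgfb2 and Tgfb3, the receptors Tgfbr1 and Tgfbr2, the signal transducers Smad2, Smad3, Smad4 and Smad7, and the target gene Ctgf. A probe was a member when its gene name was 1 of these, whatever the case of the letters. Equine names came from the probe list of the microarray and mouse names from the platform annotation. In this way 8 of the 10 genes were found, of the 12082 genes named on the microarray. They were read by 10 of its 24493 probes, 1 equine probe (TGFB1) and 9 mouse probes. No probe carried the symbol of Smad7 or Ctgf in the annotation used here, and both genes were not analysed here.

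Muscle biopsies of 7 PSSM horses (horses 5, 12, 32, 38, 42, 44 and 54) were each hybridized against 1 pool of RNA from 6 control muscles on 2 spotted microarrays with swapped dyes, 14 microarrays in all. According to the study's methods all horses were adult Norman Cobs, PSSM was diagnosed from amylase-resistant material in the fibers, and genotypes were those of the glycogen synthase gene GYS1. PSSM horses were carriers of its mutation and control horses were wild type, but the labels give no genotype. The study lists horse 44 as homozygous for the mutation and horses 12, 32, 38, 42 and 54 as heterozygous. The genotype of horse 5 was not found in the sources used here. The study lists no horse 5, and lists 1 more homozygous PSSM horse under a number that the labels lack. The control pool was 1 sample, so the spread between control horses entered no error below. Each value is a log2 ratio of PSSM over control muscle, averaged over the microarrays of a horse, and n counts horses. The files hold ratios and no signal levels, so the labelled tissue could not be checked by the levels of its markers.

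TGF-beta ligands are secreted in a latent form bound to the extracellular matrix and are released by proteases, integrins or thrombospondin. The active ligand binds the type II receptor, which phosphorylates the type I receptor, and this in turn phosphorylates Smad2 and Smad3, which enter the nucleus with the common partner Smad4. In skeletal muscle the pathway is known for restraining myoblast differentiation and for driving matrix production by fibroblasts, while its relative myostatin limits muscle mass.

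None of the 6 member probes that could be tested differed between PSSM muscle and the control pool (limma, Benjamini-Hochberg adjusted p of 0.128 to 0.889). The threshold was an adjusted p under 0.05, with values from at least 5 horses required. It was passed by 24.4% of the 361 tested equine probes (4.43% higher and 19.9% lower in PSSM muscle) and by 1.81% of the 13067 tested mouse probes (0.452% higher and 1.36% lower), so that a count of 0 among 5 mouse probes lies close to the background. At an unadjusted p under 0.05, 2 members passed, TGFB1 upwards and Smad4 downwards, where 38% of the equine and 19.1% of the mouse probes did so. The median of the 6 means was -0.0069, against -0.078 for all equine probes in the test and -0.0085 for all mouse probes in it. Differences in a muscle biopsy cannot be told apart from differences in the share of a cell type, since fewer cells and less RNA per cell give the same ratio.

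**Figure D1:**
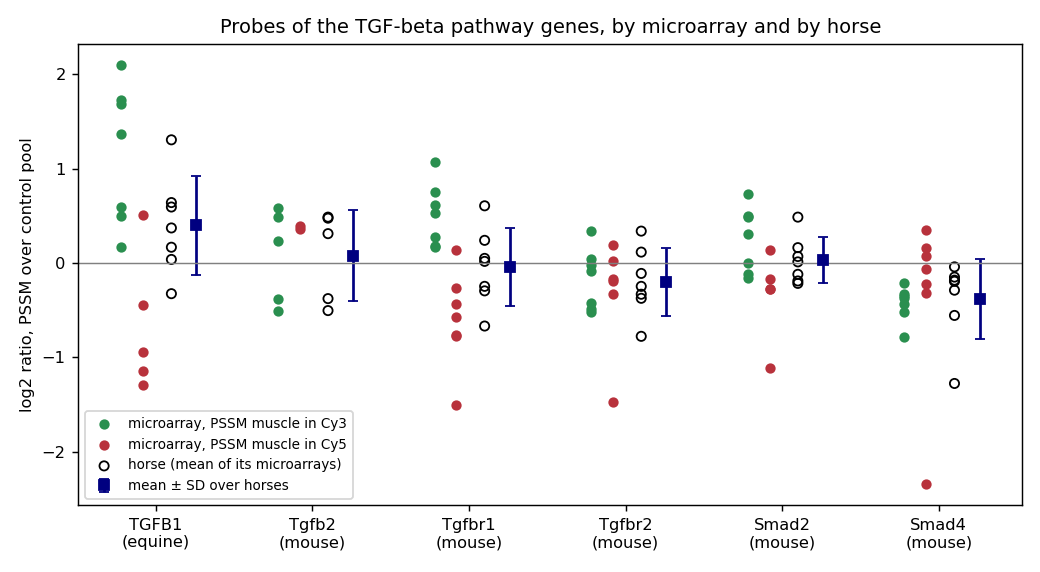
Log2 ratio of PSSM over control muscle (vertical axis) for the 6 tested member probes, with green and red points for microarrays with PSSM muscle in Cy3 and Cy5, open circles for horses and blue squares for the mean ± SD over horses. The means lie between -0.38 (Smad4) and 0.40 (TGFB1), and the green and red points of TGFB1 and Tgfbr1 lie apart.

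TGFB1, the ligand most studied in fibrosis and inflammation, had the highest mean of the members. Its horse values were 0.64 in horse 5, 0.37 in horse 12, 0.038 in horse 32, 0.59 in horse 38, -0.32 in horse 42, 1.30 in horse 44 and 0.17 in horse 54. Thus 6 of 7 PSSM horses lay above the control pool and horse 42 lay below it, with horses 38 and 54 read in the Cy3 orientation alone. The mean was 0.40 ± 0.52 (SD, n = 7), a ratio of 1.32, with a 95% interval of 0.0042 to 0.79. It did not pass the threshold (limma, adjusted p = 0.128; exact two-sided sign-flip test, p = 0.0781, where 7 horses can give 0.0156 at the least).

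The equine TGFB1 probe read differently in the 2 dye orientations. The 7 microarrays where Cy3 labelled the PSSM muscle gave 1.73, 1.68, 1.37, 0.59, 0.49, 2.10 and 0.17 for horses 5, 12, 32, 38, 42, 44 and 54, all above 0. With PSSM muscle in Cy5 the probe had values for 5 horses only, -0.45 in horse 5, -0.94 in horse 12, -1.30 in horse 32, -1.14 in horse 42 and 0.51 in horse 44. Only horse 44 was above 0 in both orientations, and the Cy3 signal was the stronger one on 11 of the 12 microarrays. Within a horse the Cy5 orientation read 2.14 lower than the Cy3 orientation (difference -2.14 ± 0.52, SD, n = 5; limma, adjusted p = 0.000128), the 10th largest such difference among 342 equine probes. Taken alone, the Cy3 orientation gave a mean of 1.16 (adjusted p = 0.00391) and the Cy5 orientation one of -0.66 (adjusted p = 0.0925). In these single orientations 47.6% (Cy3) and 32.7% (Cy5) of the equine probes passed. A dye effect of this kind was called in 55% of the equine probes and in 38.5% of the mouse probes, and 48.2% of the equine probes had opposite signs in the orientations.

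Averaging the swapped microarrays cancels the dye only where both have a value, and horses 38 and 54 had the Cy3 orientation alone. A model of all microarrays with a dye term gave a TGFB1 mean of 0.18 (limma with the horse as a random block, adjusted p = 0.567). The 5 horses with both dyes gave 0.41 (limma, adjusted p = 0.233), an alternative chosen after the data were seen. Averaging the linear ratios in place of their logarithms gave 0.67 (limma, adjusted p = 0.0253), the only averaging of both dyes under which TGFB1 passed. Without horse 44 the mean was 0.25 (limma, adjusted p = 0.266). The mouse Tgfb1 probe had no value on any microarray, so no second probe of this ligand could be set beside the equine one.

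**Figure D2:**
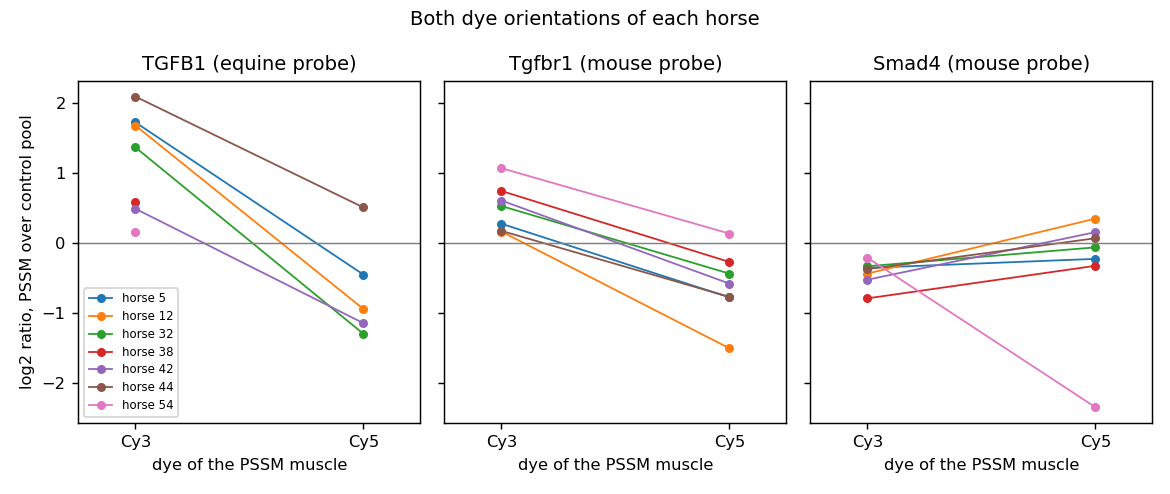
Log2 ratio of PSSM over control muscle (vertical axis) by the dye of the PSSM muscle, Cy3 or Cy5 (horizontal axis), 1 line per horse, for TGFB1, Tgfbr1 and Smad4. The lines of TGFB1 and Tgfbr1 fall from Cy3 to Cy5 in all horses with both values, while in Smad4 the line of horse 54 ends at -2.34.

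The other ligands were poorly measured. Tgfb2, a ligand with a large role in development, had values on 7 microarrays of 5 horses: 0.31 in horse 5, -0.38 in horse 12, -0.50 in horse 42, 0.47 in horse 44 and 0.49 in horse 54. The horses were split around 0, and the mean of 0.078 ± 0.48 (SD, n = 5) did not differ from 0 (limma, adjusted p = 0.841). For 2 of the 7 values the control signal was inferred to be at its lowest level. The files hold no signals, and the inference rests on the rounded steps of the linear ratio. Tgfb3 had no value on any microarray.

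Tgfbr1, the type I receptor kinase, had a value on every microarray. Its horse values ran from -0.67 in horse 12 to 0.61 in horse 54, with 4 horses above 0 and 3 below, and the mean was -0.043 ± 0.41 (SD, n = 7; limma, adjusted p = 0.888). Behind this mean stood 2 opposite readings. All 7 microarrays with PSSM muscle in Cy3 lay above 0, between 0.17 and 1.07, with a mean of 0.51 (limma, adjusted p = 0.0157). Of the 7 with PSSM muscle in Cy5, 6 lay below 0, down to -1.50 in horse 12, with a mean of -0.60 (limma, adjusted p = 0.0435). The threshold was passed by 21.4% of the mouse probes in Cy3 alone and by 16.4% in Cy5 alone. The difference between the orientations of a horse was -1.11 ± 0.26 (SD, n = 7; limma, adjusted p = 0.000222), and the Cy3 signal was the stronger one on 13 of 14 microarrays. Opposite signs in the orientations were common on these microarrays and were seen in 58.5% of the tested mouse probes.

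Tgfbr2, the type II receptor that binds the ligand first, was read by the probe NM_029575_1341 on 13 microarrays. The horse values were 0.12, -0.37, -0.25, 0.34, -0.11, -0.33 and -0.78 in horses 5, 12, 32, 38, 42, 44 and 54. Thus 5 of 7 horses lay below the control pool, but the mean of -0.20 ± 0.36 (SD, n = 7) did not differ from 0 (limma, adjusted p = 0.418). Without the Cy5 microarray of horse 54 the mean was -0.099 (limma, adjusted p = 0.595), and without horse 54 it was -0.10 (limma, adjusted p = 0.62). The orientations had means of -0.16 in Cy3 and -0.33 in Cy5 (difference -0.079 ± 0.68, SD, n = 6; limma, adjusted p = 0.809), and the Cy5 mean was -0.098 without horse 54. The second Tgfbr2 probe, NM_009371_4327, had 1 value, 0.14 on the Cy5 microarray of horse 54, where the first probe read -1.47.

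Smad4, the common partner that carries the receptor-regulated SMADs to their target promoters, had the lowest mean of the members. Its horse values were -0.29 in horse 5, -0.041 in horse 12, -0.19 in horse 32, -0.56 in horse 38, -0.18 in horse 42, -0.15 in horse 44 and -1.28 in horse 54. Every PSSM horse lay below the control pool, 6 of them within 0.56 of it, and horse 54 lay apart from the others. The mean was -0.38 ± 0.42 (SD, n = 7), 1.30-fold lower in PSSM muscle. The exact two-sided sign-flip test gave p = 0.0156, the smallest that 7 horses allow, and limma gave an unadjusted p of 0.0265, which after adjustment over the mouse probes was 0.197.

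Over all horses the dye orientations of Smad4 differed by 0.091 ± 1.01 (SD, n = 7, Cy5 minus Cy3; limma, adjusted p = 0.836). With PSSM muscle in Cy3 all 7 microarrays were below 0, from -0.79 to -0.21, with a mean of -0.43 (limma, adjusted p = 0.0109). With PSSM muscle in Cy5, 4 of 7 were below 0 and the mean was -0.34 (limma, adjusted p = 0.416). That mean rests on horse 54, at -2.34, while the other 6 microarrays lay between -0.32 and 0.35. Among the 6 horses without horse 54 the Cy5 orientation was the higher one in 6 of 6, by 0.46 ± 0.24 (SD), with means of -0.0039 in Cy5 and -0.47 in Cy3. The Cy5 microarray of horse 54 stood apart as a whole, with an SD of 2.11 over its values and a median of -0.26, against SDs of 0.46 to 1.06 on the other 13. Without that microarray the mean of Smad4 was -0.23 (limma, adjusted p = 0.142), with 7 of 7 horses below 0 and horse 54 then read in Cy3 alone, and without horse 54 it was also -0.23 (limma, adjusted p = 0.173).

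Smad2, which is phosphorylated by the type I receptor, had an SD over horses near the median SD of 0.29 over all tested mouse probes. Its values ran from -0.22 in horse 5 to 0.49 in horse 38, and the mean was 0.029 ± 0.24 (SD, n = 7; limma, adjusted p = 0.889). With 12 microarrays, the means were 0.25 in Cy3 and -0.34 in Cy5, and 3 values had a control signal inferred to be at the lowest level. Horses 38 and 54 had a Cy3 value alone, and that of horse 38 was 1 of these 3. Horse 12 read 0.73 in Cy3 and -1.11 in Cy5. Smad3, a close relative of Smad2, had 5 values from 4 horses and was not tested. The horse values were 0.087 in horses 5 and 12, -0.52 in horse 42 and -0.52 in horse 54, a mean of -0.22 ± 0.35 (SD, n = 4).

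**Figure D3:**
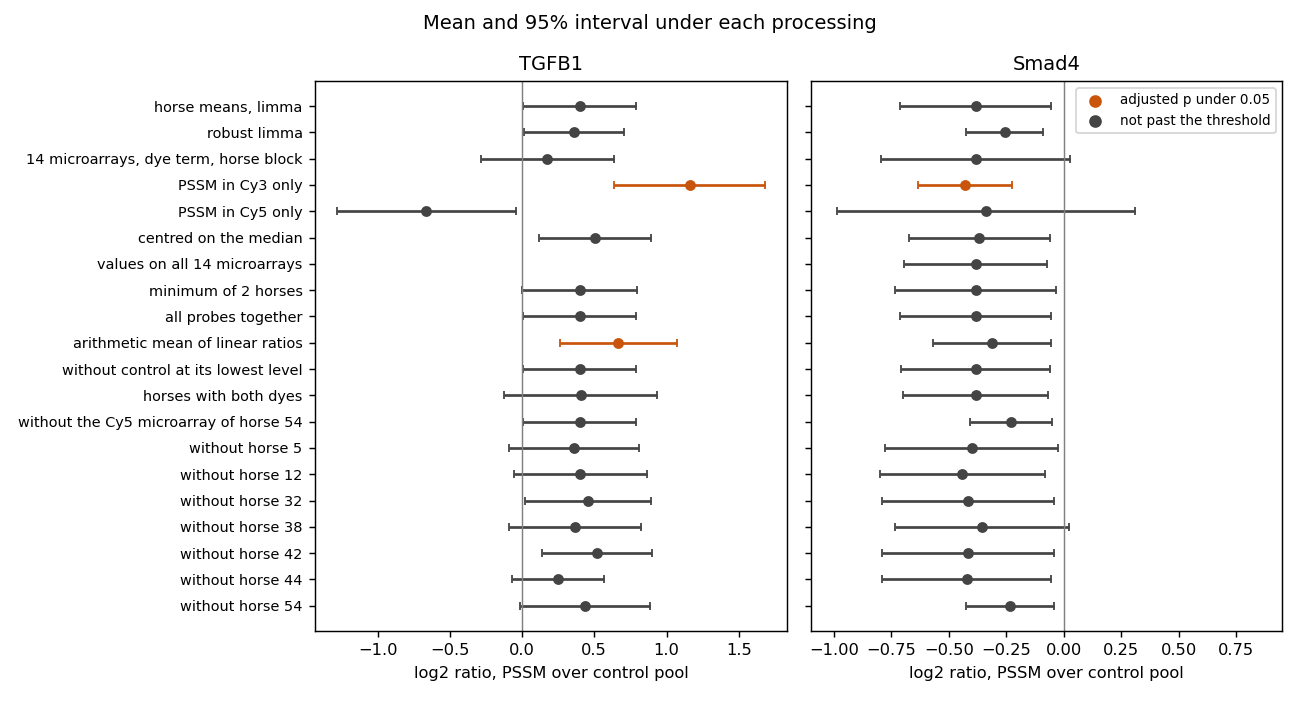
Mean log2 ratio of PSSM over control muscle with its 95% interval (horizontal axis) for TGFB1 and Smad4 under each processing (vertical axis), in orange where the adjusted p was under 0.05 (alternatives that change only the test are not drawn, and TGFB1 lacked values on all 14 microarrays). TGFB1 runs from -0.66 with PSSM in Cy5 only to 1.16 with PSSM in Cy3 only, and Smad4 stays below 0 throughout, from -0.44 to -0.23.

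Around the members, 7 lists of the same pathway named 70 genes, of which 44 could be tested by 51 probes. Of these probes 0 were higher and 1 was lower in PSSM muscle (1.96%), and 13 had an unadjusted limma p under 0.05. Over all tested probes 24.4% of the equine and 1.81% of the mouse probes passed. An unadjusted p under 0.05 was seen in 38% of the equine and 19.1% of the mouse probes. The probe that passed was mouse Fn1, for the matrix protein fibronectin, in the list of target genes. It read -1.33, -0.51, -0.32, -1.96, -2.11 and -1.56 in horses 5, 12, 32, 38, 42 and 44, and had no value in horse 54. All 6 values lay below 0, and the mean was -1.30 ± 0.74 (SD, n = 6), 2.46-fold lower in PSSM muscle (limma, adjusted p = 0.0491). The call held under 9 of the 18 alternatives that could be fitted with an adjustment, with adjusted p-values from 0.00898 to 0.149.

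The equine FN1 probe, for the same gene, read the other way, with a mean of 1.05 ± 1.16 (SD, n = 7; limma, adjusted p = 0.0661) and 6 of 7 horses above 0. Over the 6 horses with both probes the equine probe read 2.50 higher than the mouse probe (difference 2.50 ± 1.58, SD), and it was the higher one in 6 of 6. The exact two-sided sign-flip test gave p = 0.0312, the smallest for 6 horses, and p = 0.156 after adjustment over the 10 pairs of probes compared. From the equine and mouse probes no direction can therefore be given for fibronectin. The study reports FN1 as up-regulated on the microarray and as down-regulated by quantitative RT-PCR. Equine FN1 was named after its values were seen.

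The remaining target genes included interstitial collagens. Mouse Col3a1, for collagen III, averaged 1.07 ± 1.10 (SD, n = 7; limma, adjusted p = 0.146) with 6 of 7 horses above 0. In this list 14 probes were tested and the median was 0.10. Among 13 probes of regulators (median 0.073), the 2 furthest from 0 were Fst, for follistatin, which binds activins and myostatin, at 1.07 ± 1.11 (SD, n = 5; limma, adjusted p = 0.203), and Dcn, for decorin, a proteoglycan that binds TGF-beta, at 1.04 ± 1.26 (SD, n = 7; limma, adjusted p = 0.204). Neither passed the threshold. The control signal was inferred to be at its lowest level in 5 of the 8 values of Fst and in 4 of the 11 values of Col3a1.

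Genes that hold or release the latent ligand were tested by 7 probes, with a median of -0.080. Ltbp3, a latent TGF-beta binding protein, averaged 0.73 ± 0.89 (SD, n = 7; limma, adjusted p = 0.21) and its relative Ltbp1 -0.29 ± 0.37 (SD, n = 6; limma, adjusted p = 0.309). For the other ligands of the superfamily the median of 7 probes was 0.064. Myostatin was read by an equine probe (GDF8) at 0.37 ± 0.37 (SD, n = 7; limma, adjusted p = 0.0768) and by a mouse probe (Mstn) at -0.19 ± 0.76 (SD, n = 7; limma, adjusted p = 0.692). The 2 myostatin probes differed by 0.55 ± 1.02 (SD, n = 7), equine minus mouse, which was within the spread between horses (exact two-sided sign-flip test, p = 0.156, adjusted p = 0.312). Without horse 44 the difference was 0.20 and the mouse Mstn mean was 0.083, on the other side of 0. GDF8 read higher in the Cy3 orientation (mean 0.82, 7 of 7 horses above 0) than in the Cy5 orientation (mean -0.083). For this dye difference limma gave an adjusted p of 0.00139. The control signal was inferred to be at its lowest level in 5 of the 11 values of Mstn.

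Other receptors of the superfamily had a median of -0.079 over 8 probes. The furthest from 0 were 1 of the Tgfbr3 probes, for the co-receptor betaglycan, at 0.66 ± 0.52 (SD, n = 5; limma, adjusted p = 0.14) and the activin receptor Acvr2a at 0.36 ± 0.32 (SD, n = 7; limma, adjusted p = 0.142). In 5 of the 8 values of this Tgfbr3 probe the control signal was inferred to be at its lowest level. A second Tgfbr3 probe averaged -0.19 ± 0.30 (SD, n = 7; limma, adjusted p = 0.372). Its orientations were opposite, with means of 0.29 in Cy3 and -0.79 in Cy5 (dye difference, limma, adjusted p = 0.0117). Of the other SMADs, the inhibitory Smad6 averaged -1.08 ± 3.12 (SD, n = 5; limma, adjusted p = 0.604) and Smad9, which acts in the BMP branch, -0.88 ± 1.27 (SD, n = 5; limma, adjusted p = 0.332). The Smad6 mean rests on horse 54, at -6.64, the only horse below 0 for this probe. That value is a ratio of 0.01, the lowest value on these microarrays. Smad9 was also lowest in horse 54, at -3.11, but 4 of its 5 horses lay below 0. All 5 Smad9 values came from microarrays with PSSM muscle in Cy3. The list of other CCN genes, relatives of Ctgf, had no matched probe.

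**Figure D4:**
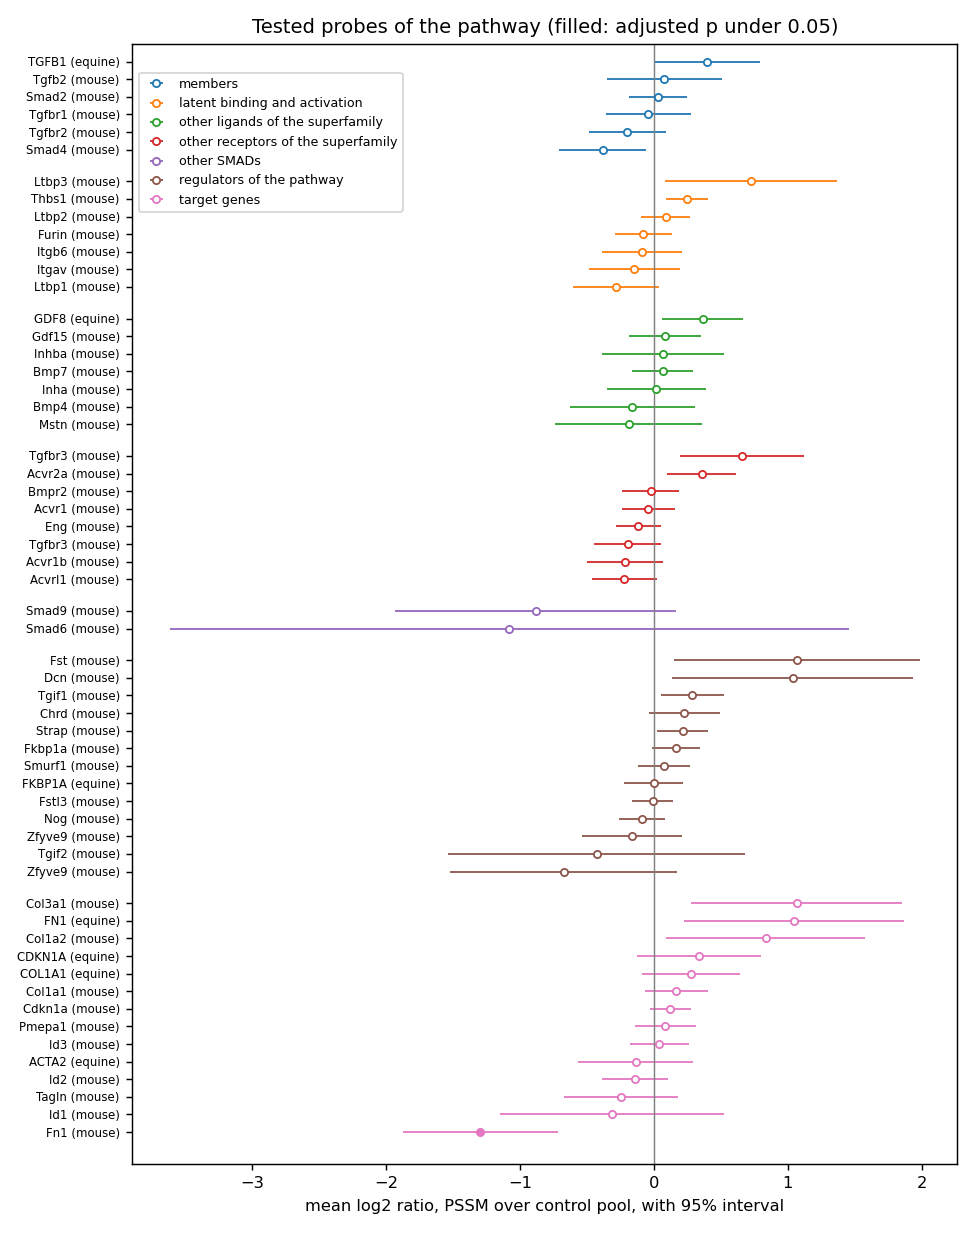
Mean log2 ratio of PSSM over control muscle with its 95% interval (horizontal axis) for the tested probes of the members and of 6 pathway lists (vertical axis, coloured by list). Only mouse Fn1, at -1.30, is filled as past the threshold, while equine FN1 lies at 1.05.

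Several of these genes were highest in the same horses, 44 and 5. Horse 44 had the highest TGFB1 (1.30), Ltbp3 (2.15), Col3a1 (3.21) and Dcn (3.38), and horse 5 came next in each (0.64, 1.46, 1.61 and 1.57). Fst was highest in the same horses, at 2.14 in horse 5 and 2.06 in horse 44. Ltbp3, Col3a1, Dcn and Fst were named for their large means, which include horse 44, so its high place is partly built in. Of the other probes named by that rule, GDF8 and Acvr2a were also highest in horse 44. The highest horse was 54 for Tgfbr3, 42 for Ltbp1 and Mstn, 5 for Smad6 and Smad9, and 32 for Fn1. Horse 44 was the only horse listed as homozygous, and the part of genotype was not tested. Horse 32 was low in TGFB1 (0.038), Ltbp3 (-0.42), Col3a1 (-0.21) and Dcn (-0.091). Horse 42 had a TGFB1 of -0.32 beside a Col3a1 of 0.90 and a Dcn of 1.03. The TGFB1 values of horses 38 and 54 come from Cy3 alone and cannot be ranked with the averages of the other 5 horses. Within Cy3, horse 44 (2.10) and horse 5 (1.73) were again the highest, and the lowest was horse 54 (0.17), not horse 42 (0.49).

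Fibroblast markers were also highest in horses 44 and 5, but the list holds Col3a1 and Dcn themselves, so part of this likeness was fixed in advance. In horse 42 the list median was 0.78 beside a TGFB1 of -0.32. Of 9 tested probes of this list, which shares Col3a1, Dcn and the collagen I genes with the pathway lists, 8 had a mean above 0 and 1 passed the threshold, equine LUM, for the matrix proteoglycan lumican, at 1.65 ± 1.44 (SD, n = 7; limma, adjusted p = 0.0269). The median of the list was 0.83 over the horse means, and by horse it was 0.88, 0.32, 0.032, 0.49, 0.78, 2.48 and -0.066 in horses 5, 12, 32, 38, 42, 44 and 54. The part of these cells in the TGFB1 ratio was not tested. Macrophage markers, with 8 probes and 0 calls, had a median of 0.075, and the median by horse lay between -0.19 and 0.24. Equine CTSS, for the lysosomal protease cathepsin S, lay far above that median at 1.67 ± 1.79 (SD, n = 7; limma, adjusted p = 0.0568), with 6 of 7 horses above 0 and 5.18 in horse 44, the horse with the highest TGFB1. Its part in the TGFB1 ratio was not tested. LUM and CTSS were named after their values were seen. In these lists 0 of 5 endothelial, 0 of 3 platelet and 0 of 3 adipocyte probes passed, with medians of -0.022, 0.036 and -0.051. Of 12 muscle fiber probes 1 was lower (median -0.13), and of 7 hepatocyte probes 5 were lower (median -0.72). Over all tested probes 19.9% of the equine and 1.36% of the mouse probes were lower. The 5 were mouse probes, among them Alb at -4.19 ± 1.08 and Fga at -3.46 ± 1.56 (SD, n = 7; limma, adjusted p = 0.000611 and 0.0114). Both lay below 0 in 7 of 7 horses and were named after their values were seen. The lowest Fga value, -6.64 in horse 54, was at the lowest ratio on these microarrays. Equine FGB (-0.11) and CYP2E1 (0.20) did not pass. The part of such RNA in the other ratios was not tested.

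**Figure D5:**
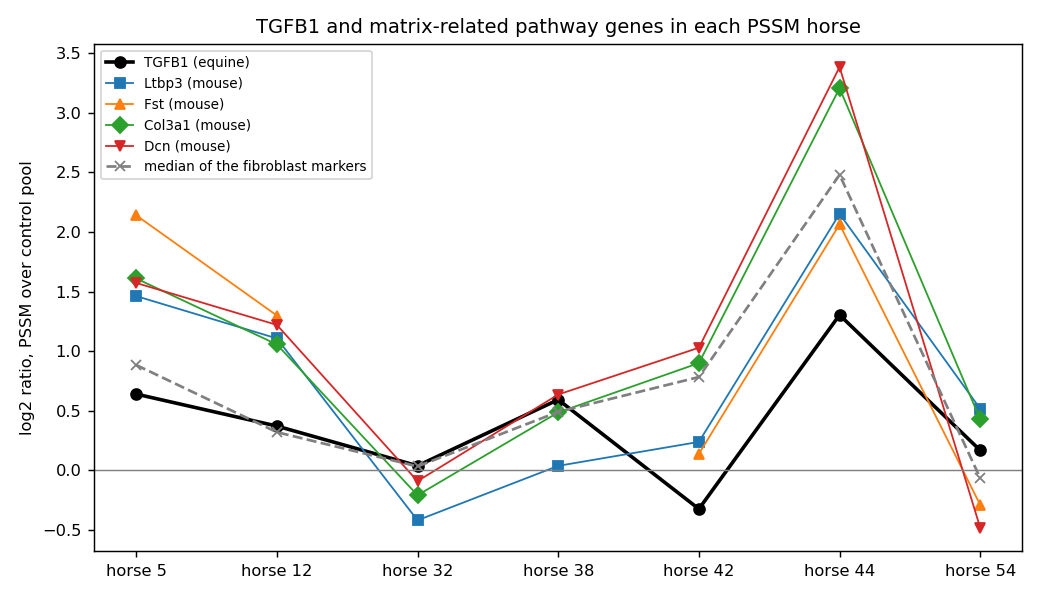
Log2 ratio of PSSM over control muscle (vertical axis) in each PSSM horse (horizontal axis) for TGFB1, Ltbp3, Fst, Col3a1 and Dcn, with the median of the fibroblast markers as a dashed line. All curves are highest in horses 44 or 5. The TGFB1 points of horses 38 and 54 come from Cy3 alone and are not comparable with the others.

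The equine probes closest to TGFB1 in their horse values, by the mean absolute difference of the log2 ratio over 7 horses, were LCK (0.127), a kinase of T lymphocytes, IGF2 (0.198), a growth factor of muscle development, and Mtch1 (0.217), a mitochondrial carrier homolog. The median of this difference was 0.635 over the 346 equine probes compared. The TGFB1 values of horses 38 and 54 come from Cy3 alone, so this order rests partly on values not comparable with the others. The means were 0.40 for LCK, 0.36 for IGF2 and 0.44 for Mtch1, and none passed the threshold (limma, adjusted p of 0.0967 to 0.175). LCK, like TGFB1, read higher in the Cy3 orientation (0.71) than in the Cy5 orientation (-0.038), as did IGF2 (0.45 and 0.27), while Mtch1 read lower in Cy3 (0.17) than in Cy5 (0.71).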

How the data were processed

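The deposited values are natural log ratios of Cy5 over Cy3. The authors quantified the scanned spots with GenePix Pro and normalized each microarray by Lowess in GeneSpring. The background correction and the rule behind empty cells are not given in the sources used here. The sign was reversed on microarrays whose labels place PSSM muscle in Cy3, and values were then put on the log2 scale and averaged for each horse. Probes with at least 5 horses were tested against 0 with limma 3.58.1 (R 4.3.3), separately for 361 equine and 13067 mouse probes. The 2 microarrays of a horse share 1 RNA extract and count as 1 replicate. The control signal was inferred to be at its lowest level where the linear ratio times 10 was whole within 0.0002. Mouse probes were read with horse RNA, and their match to horse transcripts is not known here. The member genes and all lists were chosen with earlier results of these data known. Named were all members, the called probes of each pathway list (where fewer than 2 passed, its 2 furthest from 0) and the 3 equine probes nearest to TGFB1. Alternatives numbered 19, and 2 more were chosen after seeing the data.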

Additional observations from a re-analysis of the deposited data

Results flagged for a closer look

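Among 19 groups of horse values examined, those of the member probes and of the named pathway probes, 4 held a horse far from the others. Chance marks about 1 in 20 unselected groups. Most named pathway probes were picked as the furthest from 0, to which 1 extreme horse can contribute. That rate therefore cannot be applied to them. Smad4 was at -1.28 in horse 54, with the next horse at -0.56. Smad6 was at -6.64 in horse 54, where the next horse was at 0, and Smad9 was at -3.11 in horse 54, where the next was at -0.63. In these 3 probes the low horse was 54, whose Cy5 microarray had the widest spread of values (SD 2.11). The Smad9 value came from the Cy3 microarray, since Smad9 had no Cy5 value. Mouse Mstn was at -1.82 in horse 44, with the next horse at -0.28, while the equine myostatin probe (GDF8) read 0.86 in the same horse. Both probes have limits given above, a dye difference for GDF8 and control signals inferred at their lowest level for Mstn.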

How the results depend on the processing

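Of 114 values of the tested member probes under alternatives, 100 kept their direction and their side of the threshold. No member passed in the main processing. With PSSM in Cy3 only, 3 passed (TGFB1 at 1.16, Tgfbr1 at 0.51 and Smad4 at -0.43), with PSSM in Cy5 only 1 (Tgfbr1 at -0.60), and with the arithmetic mean of linear ratios 1 (TGFB1 at 0.67). Directions turned for TGFB1 in Cy5 only (-0.66), for Tgfbr1 in Cy3 only (0.51), with arithmetic means (0.066), without the Cy5 microarray of horse 54 (0.024) and without horse 12. Smad2 turned with the horse as a block and a dye term (-0.050), in Cy5 only (-0.34), without values at the lowest control level (-0.070), in horses with both dyes (-0.033) and without horse 38. Leaving out each horse gave -0.15 to 0.061 for Tgfbr1, -0.047 to 0.070 for Smad2, 0.25 to 0.52 for TGFB1, -0.29 to -0.10 for Tgfbr2 and -0.44 to -0.23 for Smad4. The block model gave 0.18 for TGFB1 and -0.38 for Smad4.

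In the pathway lists, 1 probe passed. The count was 0 with the adjusted t-test of the methods, with values on all 14 microarrays, with a minimum of 2 horses and in horses with both dyes, 2 higher and no lower with robust limma (FN1, Tgfbr3) and with centring (FN1, GDF8), both without Fn1, and 2 (1 higher, 1 lower) with arithmetic means, without the lowest control level and without the Cy5 microarray of horse 54. It was 4 with the block (3 higher, 1 lower), 6 in Cy5 only (2 higher, 4 lower), 7 in Cy3 only (6 higher, 1 lower) and 10 with the unadjusted t-test (9 higher, 1 lower). Over all tested probes, 32.7% of the equine and 16.4% of the mouse probes passed in Cy5 only. In Cy3 only the shares were 47.6% and 21.4%. Leaving out each horse gave 0 to 2. Fewer probes could be tested where all 14 microarrays (22 of 51) or both dyes (38) were required; the cause of the other changes was not tested. The number of horses and control signals at their lowest level limit the precision.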
